A study of Mus musculus with 9 samples.

Results

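CD4+ T cells stimulated for 3 hours at 37 °C were compared with naive CD4+ T cells, using 6 of the 9 RNA sequencing libraries of a study on febrile temperature. The members were chosen by their titles alone: 3 libraries of cells activated at 37 °C and 3 libraries of naive cells. All cells came from spleens of B6 mice, and the labels give no age, allele or other treatment for either group. The activated cells were held in medium in wells coated with antibodies against CD3 and CD28 for 3 hours, and the naive cells are labelled as untreated. The libraries activated at 39 °C, the febrile temperature, were not used here except in 1 alternative fit.

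CD3 is the signalling part of the T cell receptor and CD28 is its main costimulatory partner, so plate-bound antibodies against both replace an antigen-presenting cell. A naive CD4+ T cell is a small resting cell that recirculates through lymphoid tissue. Receptor engagement releases calcium, which activates the NFAT factors, and turns on the Ras, MAP kinase and NF-kB pathways. Within hours the cell begins to transcribe cytokines and to build ribosomes, nucleotides and amino acids before its first division, which comes much later.

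Nothing in the labels tells if the naive cells were kept in medium for as long, or if CD4+ cells were purified before or after the stimulation, so handling, purification and receptor signals cannot be told apart in this contrast. Separate mice are not stated either as the source of the 3 libraries of a group, and the p-values then measure only the spread between these libraries, which may be technical. In bulk RNA, fewer cells of a type and less RNA per cell cannot be told apart.

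The naive libraries held 14872464, 13647575 and 17605549 counts and the 37 °C libraries 14126441, 14562852 and 13022415. Levels are in CPM (counts relative to library size after TMM scaling) and values are listed for libraries 1, 2 and 3 of a group in that order. Fold changes are 37 °C against naive on the log2 scale, so that a value of 1 means a doubling. They come from the edgeR quasi-likelihood fit of the 6 libraries (n = 3 per group). The value after ± is an approximate standard error, the absolute log2 fold change over the square root of the F statistic of that fit. A gene is said to rise or fall when its Benjamini-Hochberg adjusted p over all 12996 genes tested was under 0.05. Pearson correlations of log2 CPM across genes were 0.993 to 0.995 between libraries at 37 °C, 0.980 to 0.992 between naive libraries and 0.919 to 0.936 between the groups.

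Many genes differed in level between the groups, and how many were called depended on the filter and the threshold. Of the genes tested, 3877 rose, which is 29.8%, and 3927 fell, which is 30.2%, and the changes together took in 60.0%. The upper-quartile scaling of library sizes, which moved the median of all genes by -0.155, gave 3019 higher and 4926 lower genes, so that 38.0% of the calls were higher in place of 49.7%. Changes of at least 2-fold were called upward in 1378 genes (10.6%) and downward in 1346 (10.4%). The quartiles of the log2 fold change over all tested genes were -0.50 and 0.47. The libraries of the 2 groups did not overlap in 33.3% of tested genes upward and 33.0% downward, so a lack of overlap was common. The genes that rose held 22.2%, 24.5% and 23.6% of the counts in the naive libraries and 41.4%, 41.8% and 41.2% at 37 °C. The genes that fell held 46.8%, 43.0% and 44.7% in naive libraries and 28.0%, 27.3% and 28.3% at 37 °C. With the shares of all genes this high, the count of a list is read below against 29.8% higher and 30.2% lower. All lists and their members were chosen with earlier results of these data known. Their counts therefore describe that choice and are no independent test.

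**Figure D1:**
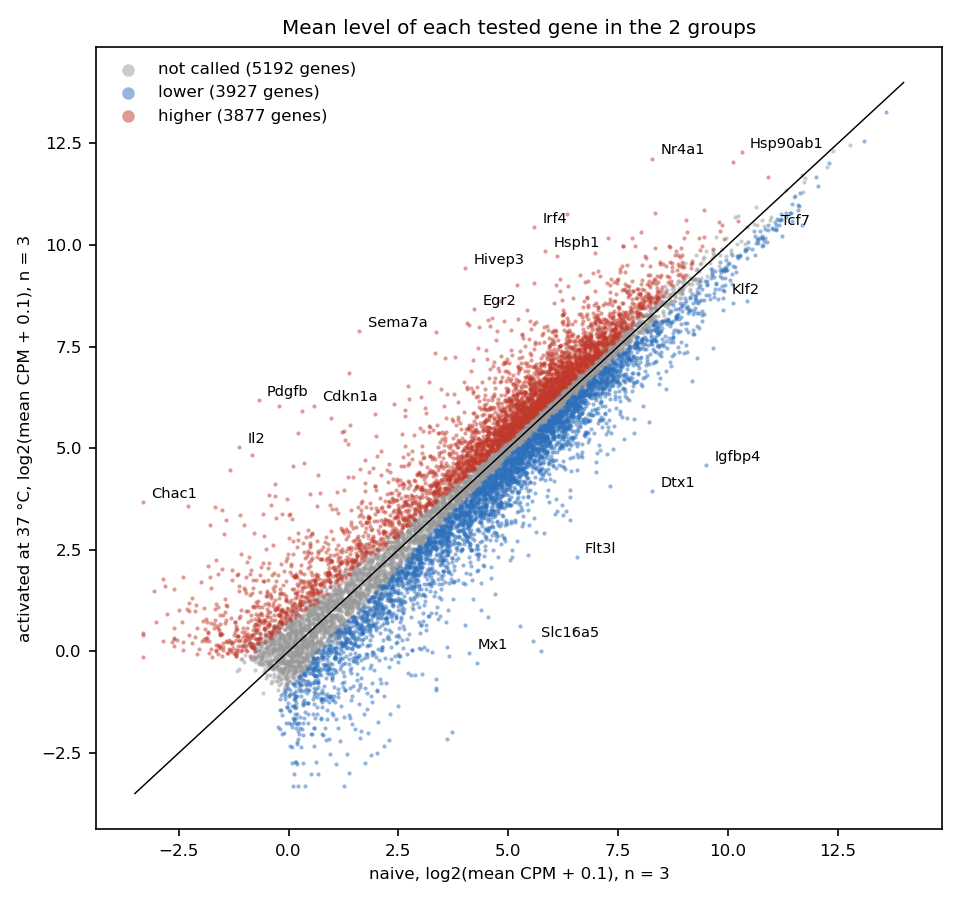
Mean level of each of the 12996 tested genes, as log2 of the mean CPM plus 0.1, in 3 naive libraries (horizontal axis) and 3 libraries at 37 °C (vertical axis), with the line of equal levels. The 3877 genes that rose are red, the 3927 that fell blue and the others grey, and labelled genes far from the line include Il2 and Chac1 above it and Igfbp4 and Slc16a5 below it.

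The labelled cell type was checked against its markers. The chains of CD3 and Cd4 together were at 2186, 1930.1 and 2069 CPM in the naive libraries and at 1626, 1523 and 1654 CPM at 37 °C. Both groups therefore carried the defining transcripts of CD4+ T cells at high levels, and the sum over all 16 CD4 T cell markers was 8714 to 10568 CPM in naive and 9539 to 10138 CPM at 37 °C. Markers of other spleen cells were lower in level and most were lower after activation. Among 19 B cell markers 16 fell and 2 rose, with a summed level of 894 to 1048 CPM in naive and 406 to 428 CPM at 37 °C. All 11 tested genes of MHC class II presentation fell (447 to 565 CPM against 221 to 241 CPM). The CD8 coreceptor chains summed to 26.1 to 35.6 CPM in naive and 13.5 to 15.3 CPM at 37 °C, while the third CD8 list member, Crtam, rose by 1.31 ± 0.12.

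Red cell and innate cell transcripts showed the widest gaps. The 4 haemoglobin genes, which share reads with near-identical copies, summed to 217, 132 and 161 CPM in naive libraries and to 3.04, 2.13 and 2.43 CPM at 37 °C. Basophil granule genes were at 3.94, 3.05 and 3.03 CPM in naive and had no count in any 37 °C library. The complement C1q genes of macrophages were at 2.58, 1.85 and 2.64 CPM in naive, with 1, 0 and 0 counts at 37 °C. NK granule genes summed to 5.95 to 9.10 CPM in naive and 0.705 to 1.31 CPM at 37 °C, and all 7 tested genes of the NK list were called lower, of which the call for Eomes was lost in 4 of the 6 fits that left out 1 library. Within the lists of dendritic cells and macrophages 6 of 8 tested genes fell (71.0 to 102 CPM against 55.2 to 58.9 CPM in sum) and Zbtb46 rose (2.07 ± 0.23). The call for Flt3 was lost without 37 °C library 2 (adjusted p = 0.0884), 37 °C library 3 (adjusted p = 0.0521) or naive library 1 (adjusted p = 0.0541, all edgeR). At a minimum count of 50, 2 of 4 tested genes were lower. The tested neutrophil gene, S100a9, had 25, 15 and 15 counts in naive libraries and none at 37 °C. Of the erythroid and platelet list 6 of 8 fell, whereas Tfrc, the transferrin receptor that dividing T cells also use, rose (2.47 ± 0.078) and brought the sum of the list to 201 to 283 CPM in naive and 274 to 291 CPM at 37 °C. Plasma cell markers split, with Jchain (-3.95 ± 0.42) and Prdm1 (-1.58 ± 0.14) lower and Irf4 and Xbp1 higher (the call for Xbp1 was lost in 4 of the 6 fits without 1 library), and their summed level of 128 to 143 CPM in naive and 1461 to 1511 CPM at 37 °C was mostly Irf4. Of 3 tested stroma and endothelium genes Pecam1 fell (-1.14 ± 0.07), Acta2 was called lower but lost the call in 5 of the 6 fits without 1 library, and Tagln was at 0.49 ± 0.42 without a call. Collagen I and III genes and Sparc stood at 26.5 CPM in naive library 2 against 0.272 and 0.618 CPM in the other naive libraries, so that library stands apart in connective tissue transcripts. The part of these other cells in the results below was not tested.

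**Figure D2:**
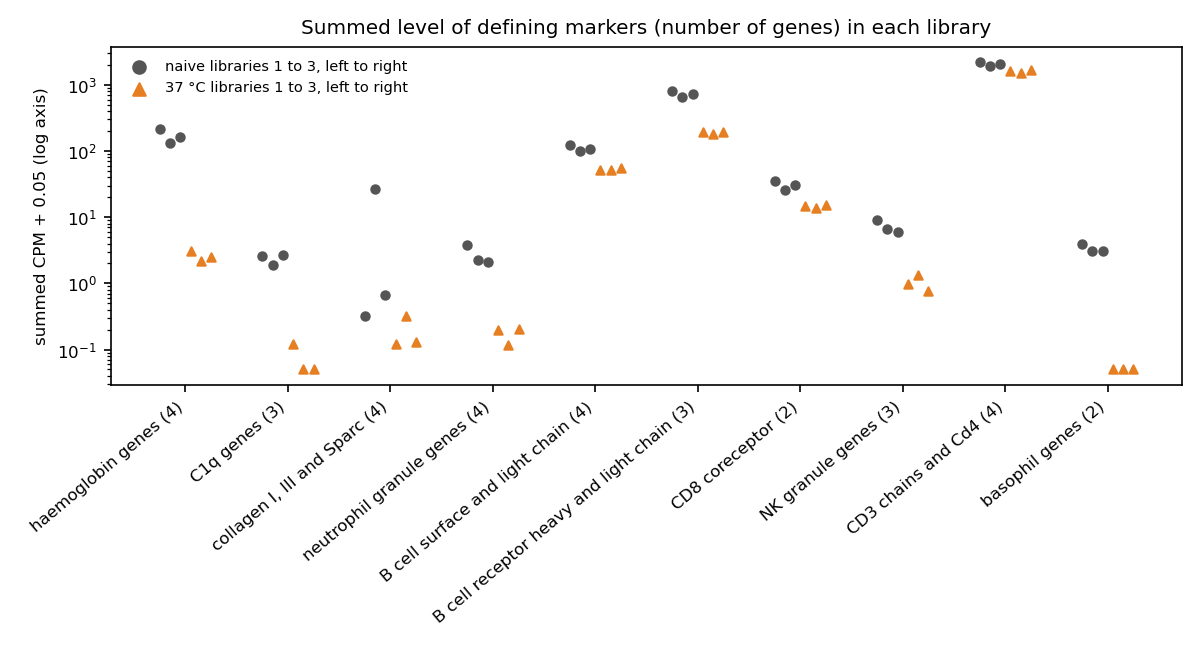
Summed CPM plus 0.05, on a log axis, of defining markers of 10 cell populations in each of the 3 naive libraries (circles) and 3 libraries at 37 °C (triangles), with the number of genes in parentheses. The CD3 chains and Cd4 are the highest set in every library, the haemoglobin genes are at 132 to 217 CPM in naive and 2.13 to 3.04 CPM at 37 °C, and collagen genes are high only in naive library 2.

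The largest rises are described for genes whose libraries did not overlap between the groups and whose mean level reached 5 CPM, leaving out cell type markers, predicted genes and pseudogenes. Most of the 12 were low in naive cells. The gene Il2, at chromosome 3, 37120523 to 37125959 in GRCm38, encodes the T cell growth factor interleukin 2 and was at 0.475, 0.426 and 0.168 CPM in the naive libraries and 30.5, 34.1 and 32.4 CPM at 37 °C (6.52 ± 0.21). Pdgfb, a chain of platelet-derived growth factor, was at 0.339, 0.497 and 0.73 CPM in the naive libraries and 70.4, 70.5 and 76.3 CPM at 37 °C (7.06 ± 0.16). Ccl4, a chemokine that attracts immune cells, was at 0.475, 0.142 and 0.281 CPM in the naive libraries and 21.6, 21.5 and 22.6 CPM at 37 °C (6.15 ± 0.22). In each of these genes the lowest 37 °C library was far above the highest naive one. The TNF family gene Tnfsf14, which encodes the costimulatory ligand LIGHT, was at 1.09, 0.355 and 0.842 CPM in the naive libraries and 65.8, 63.2 and 69.0 CPM at 37 °C, and the semaphorin gene Sema7a at 1.77, 3.84 and 3.26 CPM in the naive libraries and 240.4, 232 and 235 CPM at 37 °C. Bcat1, a cytosolic enzyme that starts the breakdown of branched-chain amino acids, was at 1.29, 0.994 and 1.12 CPM in the naive libraries and 61.4, 58.7 and 61.0 CPM at 37 °C (5.72 ± 0.12). The host transcript of the microRNA miR-155, Mir155hg, was at 2.78, 1.99 and 2.69 CPM in the naive libraries and 115, 106 and 125 CPM at 37 °C (5.52 ± 0.13). Hivep3, a large zinc finger protein that binds kB-like DNA elements, was the most abundant of the 12 at 13.7, 19.1 and 15.6 CPM in the naive libraries and 678, 771 and 610 CPM at 37 °C (5.41 ± 0.15). The list was completed by Lgals7, a galectin (5.95 ± 0.21), the CDK inhibitor gene Cdkn1a (5.58 ± 0.12), the glycine transporter gene Slc6a9 (6.67 ± 0.36) and Chac1.

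Chac1 encodes an enzyme that degrades glutathione and lies at chromosome 2, 119351229 to 119354381. It had 0 counts in all 3 naive libraries and 171, 181 and 165 counts at 37 °C, which is at least 195-fold higher when the naive group as a whole is given 3 counts, about the upper 95% limit for an observed count of 0. Another 3 genes had no count in naive cells and at least 10 in every activated library. They were Fjx1 (14, 21 and 17 counts, at least 19.7-fold), A1cf (18, 20 and 13 counts, at least 19.3-fold) and the zinc finger gene Egr4 (11 counts in each library, at least 12.5-fold). In the opposite direction the basophil protease genes Prss34 (38, 30 and 38 counts in naive, at least 31.2-fold lower) and Mcpt8 (20, 13 and 16 counts, at least 14.4-fold lower), S100a9 (at least 16.2-fold lower) and the adhesion molecule gene Vcam1 (19, 11 and 15 counts, at least 13.2-fold lower) had no count at 37 °C, and these genes are known chiefly from cells other than T cells.

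**Figure D3:**
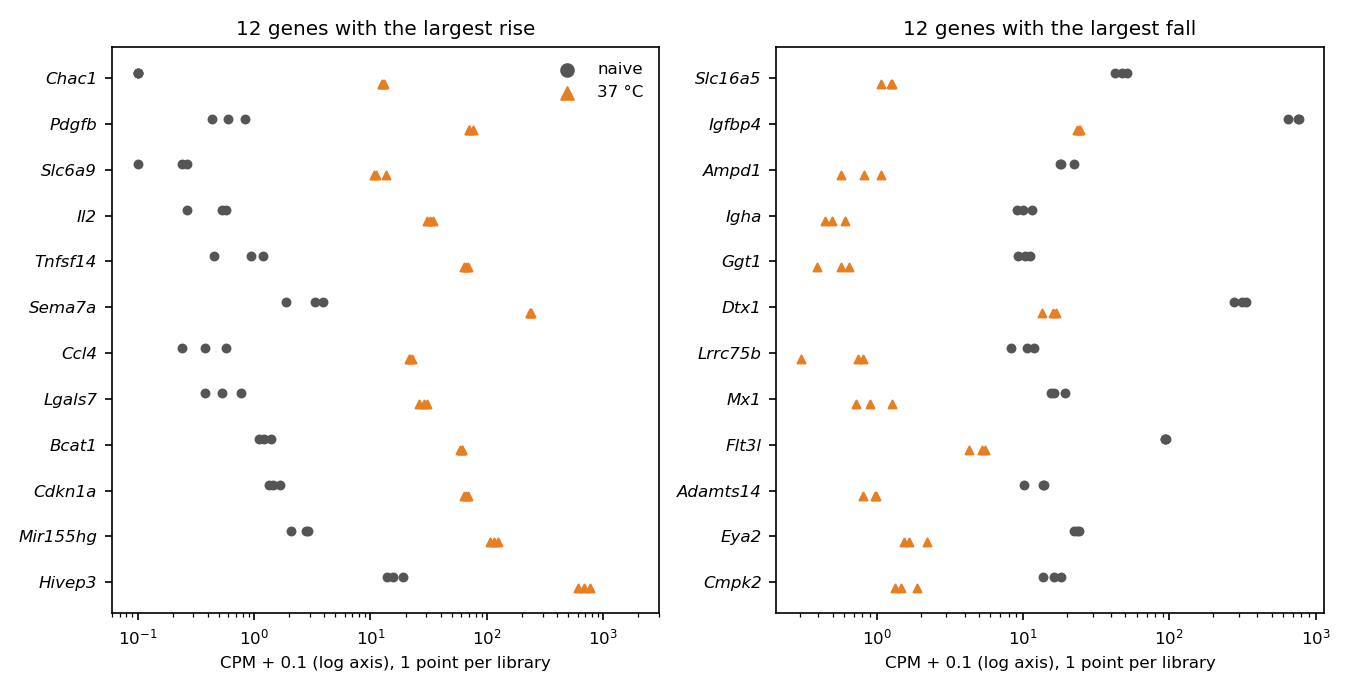
Level in every library, as CPM plus 0.1 on a log axis, of the 12 largest called rises (left) and the 12 largest called falls (right) among genes whose mean level reached 5 CPM and that are no cell type markers, predicted genes or pseudogenes, with 3 naive libraries as circles and 3 libraries at 37 °C as triangles. The groups do not overlap in any of these genes, which the rule required, and the points within a group lie close together compared with the gap.

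Transcription factors of the immediate response had moved strongly by 3 hours. The EGR family encodes zinc finger factors that are switched on by MAP kinase signals, and its NAB partners hold them back. All 6 tested EGR and NAB genes rose, against 29.8% of all genes, with a median of 3.72, or 3.63 with Egr4 at its bound. Egr1 was at 67.6, 69.3 and 70.0 CPM in the naive libraries and 886, 830 and 830.1 CPM at 37 °C (3.62 ± 0.085), and Egr2 (4.22 ± 0.087) and Egr3 (3.82 ± 0.084) rose by similar amounts. Nab2 rose by 2.40 ± 0.088 and Nab1 by only 0.41 ± 0.076. The NR4A nuclear receptors, whose levels report the strength of receptor signals, all rose as well. Nr4a1, already well expressed at 308, 299 and 319 CPM in naive cells, reached 4617, 4379 and 4425 CPM (3.86 ± 0.1), and Nr4a2 (3.57 ± 0.075) and Nr4a3 (4.44 ± 0.1) rose as steeply from other starting levels.

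AP-1 genes split by family member. AP-1 is a dimer of FOS, JUN, ATF or BATF proteins that pairs with NFAT at cytokine genes. Of 13 tested, 7 rose and 6 fell. Atf3 was at 1.15, 0.994 and 1.01 CPM in the naive libraries and 43.0, 37.6 and 44.1 CPM at 37 °C (5.29 ± 0.14), and Fosl1 (4.36 ± 0.5), Fosl2 (2.71 ± 0.12) and the small Maf gene Mafg (1.53 ± 0.094) also rose. The classical subunits fell instead: Jun was at 305, 284 and 298 CPM in the naive libraries and 52.2, 47.1 and 50.5 CPM at 37 °C (-2.57 ± 0.08), and Fos (-2.05 ± 0.081), Junb (-1.82 ± 0.097) and Jund (-1.10 ± 0.14) were lower too.

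Genes of the NF-kB family rose nearly as a block. The family comprises the DNA-binding subunits and the IkB proteins that hold them in the cytoplasm, several of which are themselves NF-kB targets. Of 11 tested, 10 rose and none fell, with a median of 1.14. Rel, the subunit that T cells rely on for interleukin 2, was at 107, 141 and 116 CPM in the naive libraries and 613, 667 and 624 CPM at 37 °C (2.39 ± 0.11). Nfkb1 (2.45 ± 0.099), Nfkb2 (2.32 ± 0.12), Relb (1.65 ± 0.074) and Rela (0.96 ± 0.078) rose by different amounts, and the largest change was in the nuclear IkB gene Nfkbid (2.83 ± 0.084). Bcl3 alone showed no call (-0.07 ± 0.084). Of 8 members with a promoter sequence, 4 (50.0%) held a consensus kB site of NF-kB on either strand in the 250 bases before the gene start, against 8.54% of 9269 tested genes with a sequence. Several members are known targets of the factor, so this share describes the list and not its rise. Nfkbid and Rela, which held no match, rose too. The Rel promoter is shown as an example of a subunit gene with a match. It is printed on the minus strand of chr11:23771032-23771099 (RefSeq, GRCm38.p6), 5′ to 3′, with 2 overlapping kB matches in capitals.
Rel: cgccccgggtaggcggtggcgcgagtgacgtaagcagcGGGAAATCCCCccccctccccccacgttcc
The match is a description of the letters and not evidence of binding.

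NFAT and calcineurin genes did not move as a block, with 3 of 11 higher and 4 lower, close to the shares of all genes. Nfatc1, the NFAT gene that is known to amplify its own short form, rose (1.83 ± 0.086), whereas Nfatc2 (-0.60 ± 0.1), Nfatc3 (-0.63 ± 0.096) and the calcineurin catalytic chain gene Ppp3cc (-1.70 ± 0.078) fell. Interferon regulatory factors were likewise split, with 3 of 8 higher and 3 lower. Irf4, which scales with receptor strength, was at 46.4, 53.8 and 44.4 CPM in the naive libraries and 1405, 1421 and 1360.3 CPM at 37 °C (4.86 ± 0.11) and Irf8 rose by 2.45 ± 0.076, while Irf7 fell by 2.37 on the log2 scale. The calls for Irf1 and Irf3 were lost in most fits that left out 1 library, and the sign of the median of this list (0.04) flipped under upper-quartile scaling.

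Myc, which drives growth of the activated T cell, was at 103, 92.2 and 101 CPM in the naive libraries and 624, 603 and 614 CPM at 37 °C (2.63 ± 0.084), with no overlap between groups. Among the 10 tested genes of its network 4 rose and 3 fell, near the shares of all genes. Besides Myc, Mga (0.72 ± 0.16), Mlxip (0.67 ± 0.15) and Mnt (0.54 ± 0.1) rose, and Mxd4 (-0.97 ± 0.1), Mxi1 (-0.57 ± 0.1) and Mxd1 (-0.50 ± 0.074) fell. In the JAK and STAT list 3 of 11 rose and 4 fell, near the background. Jak2 (1.70 ± 0.08), Stat6 (1.03 ± 0.096) and Stat5a (0.56 ± 0.093) rose. Stat2 (-0.63 ± 0.1) and Stat4 (-0.59 ± 0.092) fell, and the call for Jak3 was lost without any of 5 single libraries.

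Cytokine genes had begun to rise, from very low levels. Of 26 cytokine genes listed, 13 had enough counts to be tested, 7 rose and 2 fell. Besides Il2, Csf2, which encodes the myeloid growth factor GM-CSF, was at 0.136, 0 and 0.0561 CPM in the naive libraries and 3.69, 1.38 and 3.29 CPM at 37 °C (5.25 ± 0.67). Lif, a cytokine of the interleukin 6 family, was at 4.75, 6.25 and 7.41 CPM in the naive libraries and 64.2, 60.8 and 59.2 CPM at 37 °C (3.31 ± 0.14), and Ebi3, a shared chain of interleukins 27 and 35, rose by 2.70 ± 0.43. Il16 (-0.44 ± 0.11) and Osm (-0.89 ± 0.091) fell. Effector cytokines of differentiated helper cells were mostly below the limit: Ifng was at 0.204, 0.142 and 0.225 CPM in the naive libraries and 0.579, 0.275 and 0.313 CPM at 37 °C and was not tested, and Il5, Il6, Il9, Il13, Il17a, Il17f and Il22 also had too few counts.

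The Il2 promoter is shown since this gene had the steepest rise of any cytokine tested. It is printed on the minus strand of chr3:37125976-37126204 (RefSeq, GRCm38.p6), 5′ to 3′, and ends 22 bases before the RefSeq start. Capitals mark the 2 matches to the NFAT core GGAAAA on either strand, which begin 137 and 48 bases before the start.
Il2: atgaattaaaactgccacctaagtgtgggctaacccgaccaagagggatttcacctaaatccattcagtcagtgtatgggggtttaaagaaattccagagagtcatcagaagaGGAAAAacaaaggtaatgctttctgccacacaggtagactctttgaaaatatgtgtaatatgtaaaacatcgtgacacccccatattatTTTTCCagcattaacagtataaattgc
The core is common: it was in 18.1% of all promoters of this length, in 19.1% of those of genes that rose at least 2-fold and in 18.1% of those of genes that fell as much.

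Of 6 tested chemokine genes 5 rose and 1 fell. Ccl3 was at 0.272, 0.071 and 0.0561 CPM in the naive libraries and 1.81, 1.51 and 2.98 CPM at 37 °C (3.93 ± 0.53), and Xcl1, which attracts cross-presenting dendritic cells, was at 0.136, 0.071 and 0.449 CPM in the naive libraries and 4.63, 3.72 and 5.56 CPM at 37 °C (4.25 ± 0.42). Cxcl10 rose by 1.85 ± 0.28, and the call for Cxcl16 (1.39 ± 0.41) was lost without 37 °C library 2 (adjusted p = 0.0771, edgeR). Ccl5, a chemokine of memory T cells and NK cells, was at 10.1, 6.60 and 8.31 CPM in the naive libraries and 0.868, 0.551 and 1.49 CPM at 37 °C (-3.12 ± 0.31), and it fell beside the NK granule genes.

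TNF family ligands, the membrane and secreted signals by which a T cell instructs other cells, rose broadly: 9 of 11 rose and 1 fell, with a median of 2.10. Tnf was at 18.5, 15.6 and 16.1 CPM in the naive libraries and 279.6, 256 and 274 CPM at 37 °C (4.01 ± 0.097). Tnfsf11, which encodes RANKL, was at 7.20, 5.04 and 7.58 CPM in the naive libraries and 73.3, 75.0 and 73.9 CPM at 37 °C (3.48 ± 0.13). Lta (2.95 ± 0.11), Tnfsf9 (4-1BB ligand, 2.45 ± 0.19), Tnfsf4 (OX40 ligand, 2.10 ± 0.29), Tnfsf8 (CD30 ligand, 1.35 ± 0.069), Fasl (1.20 ± 0.11) and Cd40lg, the signal of help to B cells (0.86 ± 0.078), rose less. Ltb showed no call (0.13 ± 0.11), and Tnfsf10, which encodes TRAIL and is known as an interferon target, fell (-1.76 ± 0.15). In the family of TNF receptors 8 of 13 rose and 3 fell. Tnfrsf9 (4-1BB) was at 19.6, 19.1 and 21.2 CPM in the naive libraries and 263, 234 and 267 CPM at 37 °C (3.67 ± 0.092), and Tnfrsf1b (1.78 ± 0.086), Tnfrsf4 (OX40, 1.66 ± 0.11) and Fas (1.13 ± 0.089) rose. Tnfrsf1a (-0.43 ± 0.099) and Tnfrsf13b, a receptor known from B cells (-1.08 ± 0.1), fell.

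Cytokine receptor chains changed in both directions. Il2ra, the alpha chain of the high-affinity interleukin 2 receptor, was at 42.8, 43.5 and 42.8 CPM in the naive libraries and 346, 332 and 339 CPM at 37 °C (2.98 ± 0.074). Over 26 tested cytokine receptor chains 7 rose and 11 fell, and upper-quartile scaling gave 4 higher and 14 lower. Il15ra (0.83 ± 0.13), Tgfbr1 (0.68 ± 0.079) and Il21r (0.63 ± 0.085) rose. Il7r, the receptor of the survival cytokine interleukin 7, fell from 884, 844 and 794 CPM to 478, 477 and 487 CPM (-0.81 ± 0.082), and Il10ra (-1.28 ± 0.12) and Il10rb (-0.94 ± 0.11) fell with it. The largest fall was in Csf2rb (-4.21 ± 0.6), the common receptor chain of myeloid cytokines.

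Among 25 costimulatory and inhibitory receptor genes 14 rose and 9 fell. Cd69, a surface protein that retains activated cells in tissue, was at 206, 178 and 204 CPM in the naive libraries and 956, 974 and 1106 CPM at 37 °C (2.37 ± 0.1). The inhibitory receptor gene Pdcd1 (PD-1) was at 7.94, 10.3 and 9.15 CPM in the naive libraries and 107, 91.8 and 96.9 CPM at 37 °C (3.43 ± 0.11), and both of its ligand genes, Cd274 (2.96 ± 0.095) and Pdcd1lg2 (3.50 ± 0.22), rose in the same libraries. Slamf1 rose by 3.62 ± 0.084, whereas its relatives Slamf6 (-1.19 ± 0.075) and Cd48 (-1.08 ± 0.11) fell. Cd226 (-1.92 ± 0.099) and Cd200r1 (-1.50 ± 0.13) were also lower.

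Genes of the T cell receptor and its proximal kinases and adaptors went both ways, with 13 of 24 lower and 7 higher. Their summed level was 11671 to 12829 CPM in naive and 13412 to 13784 CPM at 37 °C. The constant region genes Trbc1 (-0.74 ± 0.16) and Trbc2 (-0.88 ± 0.17), which resemble each other and may share reads, the thymocyte-selection gene Themis (-1.41 ± 0.072), the kinase gene Txk (-1.35 ± 0.073) and the adaptors Grap2 (-1.02 ± 0.12) and Skap1 (-0.98 ± 0.11) fell. The adaptor Lcp2, known as SLP-76 (1.62 ± 0.079), the phosphatase gene Ptpn22 (1.29 ± 0.076) and the kinase gene Zap70 (1.26 ± 0.09) rose. In the list that overlaps with it, of 16 CD4 T cell markers, 5 rose and 7 fell, among them Cd5 (1.25 ± 0.082), Cd6 (0.79 ± 0.092) and Thy1 (-1.39 ± 0.088).

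Genes of homing and egress were lower. Of 16 tested, 11 fell and 1 rose, against 30.2% of all genes lower, with a median of -0.53. Klf2, the factor that keeps egress genes on, was at 1114, 769 and 956 CPM in the naive libraries and 443, 385 and 416 CPM at 37 °C (-1.19 ± 0.14). Its known target S1pr1, the receptor by which T cells leave lymphoid organs, was at 1017, 910.3 and 913 CPM in the naive libraries and 485, 473 and 472 CPM at 37 °C (-0.99 ± 0.085). Itgb7 (-2.22 ± 0.091) and Selplg (-1.30 ± 0.086) fell further, and Itgb1 rose (0.57 ± 0.075). Ccr7 was lower by a small step (-0.33 ± 0.09) whose call was lost without 37 °C library 2 (adjusted p = 0.065) or 3 (adjusted p = 0.0511, edgeR in both). Among 10 tested chemokine receptors Ccr8 (3.89 ± 0.11), Ccr4 (2.49 ± 0.15) and Cxcr6 (1.15 ± 0.2) rose and 4 were called lower, of which Ccr9 (-1.27 ± 0.26) kept its call when each library was left out. In 5 of the 6 fits that left out 1 library, 1 or 2 lower calls were made in place of 4.

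Feedback inhibitors of MAP kinase and cytokine signals mostly rose. The DUSP phosphatases and the Sprouty and SPRED proteins restrain MAP kinases, and 10 of 16 rose while 3 fell. Spry1 was at 11.4, 9.23 and 9.49 CPM in the naive libraries and 167, 157 and 167 CPM at 37 °C (4.02 ± 0.1), and Spry4 (2.85 ± 0.41), Spred1 (2.18 ± 0.12) and Dusp4 (1.64 ± 0.17) rose. Dusp1 (-1.27 ± 0.091), Dusp10 (-1.55 ± 0.075) and Dusp7 (-0.77 ± 0.094) fell. Of the SOCS genes, feedback inhibitors of cytokine receptors, 7 of 8 were called higher and Socs3 fell from 179, 205 and 216 CPM to 38.0, 36.3 and 38.2 CPM (-2.41 ± 0.092). Upper-quartile scaling gave 4 higher calls in place of 7. Cish, a target of interleukin 2 signals, rose most (2.40 ± 0.09), followed by Socs7 (0.90 ± 0.12), Socs1 (0.79 ± 0.11) and Socs5 (0.77 ± 0.093).

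Of 23 ubiquitin editors and ligases of T cell signalling 9 rose and 8 fell, near the background. Dtx1, a Notch target linked to anergy, was at 277, 316 and 336 CPM in the naive libraries and 13.3, 15.9 and 16.7 CPM at 37 °C (-4.34 ± 0.12), and Nedd4 (-1.28 ± 0.22) and Nedd4l (-0.98 ± 0.1) also fell, whereas Tnip2 (1.56 ± 0.086), the ligase adaptor gene Ndfip1 (1.25 ± 0.12) and Cblb (1.04 ± 0.09) rose. Among 17 mRNA decay factors 8 rose and 5 fell, and without 37 °C library 1 the higher calls numbered 5. The AU-rich element binder Zfp36l1 rose (1.27 ± 0.11) while its paralog Zfp36l2 fell (-1.16 ± 0.081), and Ybx3 (1.76 ± 0.13) and the regnase gene Zc3h12d (1.15 ± 0.073) rose. In the diacylglycerol pathway 4 of 16 rose and 9 fell. Rasgrp2 (-1.70 ± 0.092), Rasgrp3 (-1.25 ± 0.24) and the diacylglycerol kinase gene Dgka (-0.81 ± 0.098) fell, and Dgkh (1.41 ± 0.13) rose.

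Genes that supply building blocks rose in most of their lists. Amino acid transporters rose in 13 of 19 and fell in 3. Slc7a5, the large neutral amino acid transporter on which activated T cells depend, was at 44.3, 50.6 and 48.5 CPM in the naive libraries and 539, 518 and 537 CPM at 37 °C (3.47 ± 0.088). Slc1a4 was at 0.883, 1.42 and 1.24 CPM in the naive libraries and 25.4, 23.6 and 25.1 CPM at 37 °C (4.38 ± 0.16), and Slc7a1, the arginine transporter, rose by 2.94 ± 0.14. Cytosolic aminoacyl-tRNA synthetases, which load amino acids on tRNAs, rose in 19 of 20 with none lower and a median of 1.28, led by Cars (2.48 ± 0.081), Yars (2.13 ± 0.076), Aars (2.12 ± 0.11) and Iars (2.07 ± 0.1). Synthesis of serine, one-carbon units and proline rose in 15 of 20 and fell in 2 (in 4 without naive library 2), with a median of 1.45. Asns, which makes asparagine, was at 0.136, 0.426 and 0 CPM in the naive libraries and 8.10, 8.60 and 8.93 CPM at 37 °C (5.56 ± 0.44). Pycr1, the last step of proline synthesis, was at 0.543, 0.852 and 0.505 CPM in the naive libraries and 16.1, 12.1 and 14.9 CPM at 37 °C (4.50 ± 0.23), and Psat1 (3.43 ± 0.1) and Shmt1 (3.66 ± 0.1) rose with it.

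Polyamines are made from ornithine by Odc1, which was at 243, 206 and 233 CPM in the naive libraries and 1182, 1088 and 1222 CPM at 37 °C (2.36 ± 0.1). Of 13 polyamine genes 9 rose and 1, Paox, fell (-0.84 ± 0.13), and the spermidine synthase gene Srm rose by 2.50 ± 0.12. Nucleotide synthesis rose in 17 of 25 genes and fell in 3, led by Umps (2.19 ± 0.086), Ctps (2.03 ± 0.074), Nme2 (1.94 ± 0.35) and Pfas (1.74 ± 0.11), with Rrm2, the S phase subunit of ribonucleotide reductase, lower (-0.87 ± 0.23). Glycolysis was mixed, with 10 of 21 higher and 8 lower. Hk2, the inducible hexokinase, was at 0.747, 1.56 and 2.13 CPM in the naive libraries and 19.9, 20.0 and 20.7 CPM at 37 °C (3.73 ± 0.24), and the monocarboxylate carriers Slc16a1 (1.95 ± 0.087) and Slc16a3 (1.13 ± 0.11) and Pgam1 (1.68 ± 0.091) rose. Pfkm (-1.55 ± 0.14), Eno1 (-0.99 ± 0.093), Eno3 (-0.90 ± 0.15) and Ldhb (-0.96 ± 0.11) fell, and Slc2a1, the main glucose transporter, was at 47.1, 47.0 and 46.3 CPM in the naive libraries and 55.9, 54.3 and 58.8 CPM at 37 °C, a small change (0.27 ± 0.072) whose call was lost without 37 °C library 3 (adjusted p = 0.0562) and under upper-quartile scaling (adjusted p = 0.201, edgeR in both). Sterol synthesis and LDL uptake rose in 15 of 27 and fell in 9, with Idi1 (1.95 ± 0.11) and Cyp51 (1.83 ± 0.078) higher and Mvd (-1.31 ± 0.12), Mvk (-1.16 ± 0.12) and the cholesterol exporters Abcg1 (-1.42 ± 0.087) and Abca1 (-1.15 ± 0.15) lower.

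The machinery that builds ribosomes rose while the ribosomal protein genes fell. Of 47 ribosome biogenesis factors 45 rose and none fell, with a median of 1.48. Rrp12 was at 24.4, 39.0 and 37.4 CPM in the naive libraries and 156, 162 and 153 CPM at 37 °C (2.22 ± 0.15), and Grwd1 (2.22 ± 0.07), Nolc1 (2.21 ± 0.095) and Nop2 (2.17 ± 0.077) rose by as much. RNA polymerase I and III genes rose in 20 of 31 and fell in 6, among them Polr1b (2.22 ± 0.092) and Cd3eap (1.66 ± 0.1) upward, and Polr3gl (-1.73 ± 0.13) and Maf1, the repressor of RNA polymerase III (-0.70 ± 0.087), downward. Of 77 cytosolic ribosomal protein genes 65 fell and 1 rose, with a median of -0.54. Without 37 °C library 2 only 36 were called lower, at a median of -0.48. Rpl39 fell by 0.98 on the log2 scale and Rps29 by 0.80. Their counts together made up 14.8%, 10.4% and 12.2% of the naive libraries and 8.60%, 7.89% and 8.98% of the 37 °C libraries, so that the groups did not overlap but the naive libraries differed among themselves. Many of these genes have processed copies that can take reads, and the single values are uncertain, above all that of Rps10, the exception (0.70 ± 0.14).

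Translation initiation factors rose in 26 of 39 and fell in 4, or in 8 without naive library 2. Eif4ebp1, which encodes an inhibitor of cap-dependent initiation, rose most, from 7.94, 4.76 and 5.84 CPM to 58.4, 49.7 and 58.1 CPM (3.16 ± 0.16). Eif1a (1.81 ± 0.11) and the cap-binding factor gene Eif4e (1.44 ± 0.11) also rose, and Pdcd4, an inhibitor of the helicase eIF4A, fell (-1.20 ± 0.086). All 8 subunit genes of the CCT chaperonin, which folds actin and tubulin, rose within a narrow band from 0.68 (Cct2) to 1.59 (Cct3). Proteasome core and lid genes rose in 23 of 34, or in 15 under upper-quartile scaling. The 3 that fell are the catalytic subunits of the immunoproteasome, Psmb8 (-1.12 ± 0.12), Psmb9 (-1.16 ± 0.1) and Psmb10 (-1.13 ± 0.12), which interferon is known to induce. Nuclear pore and transport genes rose in 37 of 41 and fell in 2 (median 0.81), led by the importin genes Ipo4 (2.43 ± 0.1), Ipo5 (1.90 ± 0.077) and Kpna2 (1.68 ± 0.098).

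Mitochondrial genes divided by task. Import and chaperone genes rose in 19 of 25 and fell in 1 (median 0.78). The chaperonin gene Hspd1 was at 120.1, 107 and 111 CPM in the naive libraries and 546, 536 and 569.6 CPM at 37 °C (2.29 ± 0.083), and its partner Hspe1 (1.66 ± 0.14) and the import motor gene Hspa9 (1.66 ± 0.076) rose. Nuclear genes of the respiratory chain did not rise as a group: 4 of 42 were higher and 14 lower, with a median of -0.18. The lower count ranged from 7 without 37 °C library 2 to 22 without naive library 2, so it rests on single libraries. Ndufb10 (-0.92 ± 0.11) and Atp5c1 (-0.73 ± 0.12) fell and Atp5b (0.52 ± 0.089) rose.

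**Figure D4:**
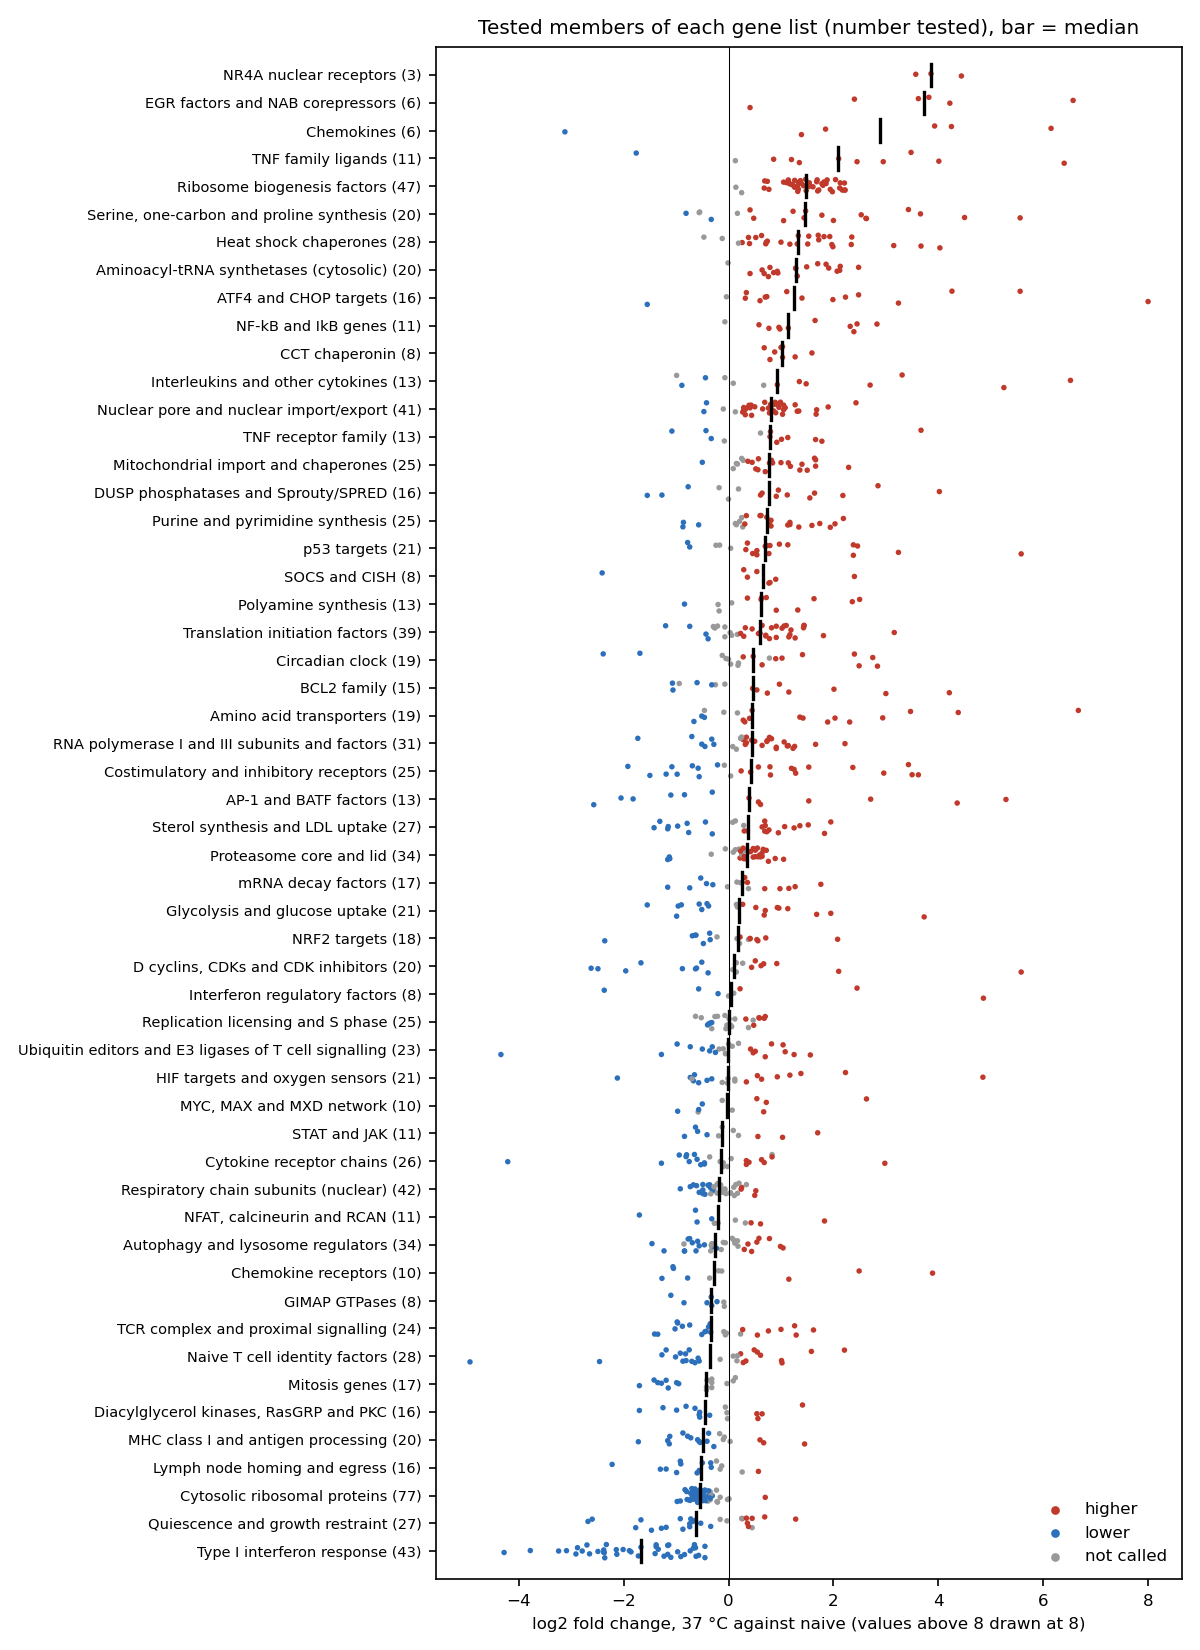
Log2 fold change, 37 °C against naive, of every tested member of 54 gene lists (number tested in parentheses), sorted by the list median, which is the black bar. Red members rose, blue fell and grey had no call, and type I interferon response genes are at the bottom with 43 of 43 lower, while NR4A, EGR and chemokine genes are at the top.

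Mitosis genes did not rise by 3 hours. Of 17 tested 8 fell and none rose, among them Cdk1 (-1.70 ± 0.32), Ccna2 (-1.42 ± 0.27), Ccnb1 (-1.35 ± 0.3) and Top2a (-1.28 ± 0.15). Cdk1 was at 2.51, 1.49 and 1.74 CPM in the naive libraries and 0.506, 0.688 and 0.549 CPM at 37 °C, a low level in both groups. Replication genes rose in 6 of 25 and fell in 3 (5 without naive library 2), fewer than the background in both directions, with Pcna (0.70 ± 0.099) and Mcm5 (0.68 ± 0.081) slightly higher. The G1 regulators moved far in both directions, with 7 of 20 higher and 9 lower, and the sign of their median flipped without naive library 1. Ccnd2, the D cyclin of activated lymphocytes, was at 202, 273 and 229 CPM in the naive libraries and 1012, 1017 and 998 CPM at 37 °C (2.10 ± 0.12). Cdkn1a, which encodes the CDK inhibitor p21, was at 1.56, 1.35 and 1.24 CPM in the naive libraries and 68.5, 63.7 and 66.2 CPM at 37 °C. Cdkn2d (-2.62 ± 0.13), Cdkn2c (-1.67 ± 0.28), E2f2 (-2.49 ± 0.13) and Ccne1 (-1.96 ± 0.17) fell.

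The BCL2 family holds promoters of survival and of death, and 8 of its 15 tested genes rose and 4 fell. The survival gene Bcl2l1, which encodes BCL-XL, was at 19.7, 17.5 and 20.3 CPM in the naive libraries and 78.3, 75.6 and 77.3 CPM at 37 °C (2.01 ± 0.084). The A1 genes Bcl2a1b (3.00 ± 0.22) and Bcl2a1d (4.21 ± 0.16) rose, but they are near-identical copies and their single values are uncertain. Bcl2 itself fell (-0.60 ± 0.074), as did the death promoters Bad (-1.07 ± 0.15) and Bmf (-1.06 ± 0.16), while Bid rose (1.15 ± 0.087). Genes known as p53 targets rose in 16 of 21 and fell in 2, or in 4 under upper-quartile scaling. Aen (2.38 ± 0.1), Phlda3 (2.46 ± 0.21) and Sesn2 (3.24 ± 0.1) led beside Cdkn1a, several of which other pathways also induce, and Sesn1 (-0.74 ± 0.068) and Rrm2b (-0.78 ± 0.093) fell.

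Falls are described here for genes chosen as the rises were, which leaves out the markers of other cells with their larger falls. Igfbp4, a binding protein of insulin-like growth factors that marks naive T cells (chromosome 11, 99041244 to 99054392), was at 762, 648 and 769 CPM in the naive libraries and 23.9, 23.3 and 24.4 CPM at 37 °C (-4.93 ± 0.11). Flt3l, which encodes the growth factor of dendritic cell precursors, was at 93.6, 93.5 and 94.7 CPM in the naive libraries and 4.20, 5.37 and 5.17 CPM at 37 °C (-4.25 ± 0.1). The monocarboxylate carrier gene Slc16a5 was at 47.3, 42.6 and 51.0 CPM in the naive libraries and 1.16, 0.964 and 1.18 CPM at 37 °C (-5.41 ± 0.14). Each of these genes fell evenly in all 3 activated libraries. Ampd1, which encodes the muscle-type AMP deaminase (-4.72 ± 0.22), the glutathione-cleaving enzyme gene Ggt1 (-4.50 ± 0.23), Lrrc75b (-4.29 ± 0.31), the protease gene Adamts14 (-3.91 ± 0.22) and Eya2 (-3.77 ± 0.15) fell in the same range. The immunoglobulin heavy chain gene Igha, also among these 12 falls (-4.58 ± 0.23), is a B lineage transcript and fell beside the B cell markers. The list ends with Dtx1 and the interferon genes Mx1 and Cmpk2 (-3.44 ± 0.19).

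Factors of naive identity did not fall as one: 14 of 28 tested fell and 10 rose. Tcf7 was at 2169, 2018 and 2056 CPM in the naive libraries and 1352, 1314 and 1347 CPM at 37 °C (-0.64 ± 0.087), and Dapl1 (-2.46 ± 0.19) and Gata3 (-0.75 ± 0.097) fell. Bcl6, the follicular helper factor, was at 25.7, 32.5 and 31.7 CPM in the naive libraries and 143, 133 and 142 CPM at 37 °C (2.21 ± 0.1), and Id3 (1.58 ± 0.14), Myb (1.02 ± 0.089) and Ikzf3 (1.01 ± 0.25) rose. The T helper 1 factor gene Tbx21 was low but higher after activation, at 1.22, 0.71 and 1.24 CPM in the naive libraries and 7.45, 6.88 and 7.99 CPM at 37 °C (2.79 ± 0.22), and the regulatory T cell factor gene Foxp3 rose by 0.94 ± 0.092. Genes of quiescence fell in 16 of 27 and rose in 7, with a median of -0.62, and upper-quartile scaling gave 4 higher. Klf4 was at 11.2, 10.1 and 10.2 CPM in the naive libraries and 1.95, 1.45 and 1.49 CPM at 37 °C (-2.68 ± 0.17), Slfn5 at 127, 132 and 124 CPM in the naive libraries and 21.4, 20.4 and 21.5 CPM at 37 °C (-2.60 ± 0.075), and Tsc22d3, the glucocorticoid-induced leucine zipper gene, fell by 1.67 on the log2 scale. Of 8 tested GIMAP GTPases, which support survival of resting T cells, 6 were called lower, or 3 without 37 °C library 2, and Gimap7 (-1.10 ± 0.12) and Gimap6 (-0.85 ± 0.083) fell most.

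Notch receptor and TRPV channel genes bear on the title of the study. Notch1 was at 83.2, 217 and 185 CPM in the naive libraries and 242, 258 and 214 CPM at 37 °C, with naive library 1 well below the other naive libraries and an overlap of the groups. Its change of 0.56 ± 0.28 was not called (adjusted p = 0.114, edgeR). It was called without naive library 1 (0.24, adjusted p = 0.0298), without naive library 2 (0.79, adjusted p = 0.0223), with the replicate number as a block (0.65, adjusted p = 0.0242) and with genes of any count tested (0.53, adjusted p = 1.56e-06, all edgeR), so its size rests on single libraries. Trpv2, a cation channel gene, was at 73.3, 78.5 and 82.4 CPM in the naive libraries and 38.4, 34.2 and 34.9 CPM at 37 °C (-1.12 ± 0.083). Trpv4 was low, at 2.24, 1.63 and 1.63 CPM in the naive libraries and 1.37, 0.895 and 1.25 CPM at 37 °C, and was not called (-0.64 ± 0.28). It was called lower under upper-quartile scaling (-0.8, adjusted p = 0.0307) and with all 9 libraries (-0.65, adjusted p = 0.0407, edgeR in both). Orai1, the pore of store-operated calcium entry, was at 70.6, 48.7 and 59.6 CPM in the naive libraries and 248, 227 and 241 CPM at 37 °C (2.00 ± 0.13).

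Type I interferon response genes were the longest list in which every tested member was called in the same direction. Interferon alpha and beta act through a complex with STAT2 and IRF9, which binds the interferon-stimulated response element (ISRE) and switches on antiviral genes. All 43 tested members fell and none rose, against 30.2% of all genes lower. Their median was -1.67, and 31 of them fell at least 2-fold. The members were chosen with earlier results of these data known, so these counts describe this choice and are no independent test. Mx1, an antiviral GTPase, was at 15.5, 19.4 and 16.3 CPM in the naive libraries and 0.796, 1.17 and 0.627 CPM at 37 °C (-4.28 ± 0.21). Oas3, an oligoadenylate synthetase, was at 38.1, 46.4 and 45.6 CPM in the naive libraries and 5.28, 5.44 and 4.54 CPM at 37 °C (-3.09 ± 0.12). Irf7, which amplifies the response, was at 159, 139.7 and 154 CPM in the naive libraries and 29.0, 27.0 and 31.3 CPM at 37 °C (-2.37 ± 0.09). The naive libraries were above every 37 °C library in each of these 3 genes. Mx2, annotated as a polymorphic pseudogene (-3.78 ± 0.4), and Ifi44 (-3.24 ± 0.22) fell as far, while the signalling genes Stat2 (-0.63) and Irf9 (-0.57 ± 0.073) and the tetherin gene Bst2 (-0.62 ± 0.14) fell by less than the list median. B cells, dendritic cells and macrophages also express genes of this list. In the same libraries 16 of 19 B cell markers and 6 of 8 tested dendritic cell and macrophage markers were lower. The B cell markers Pou2af1 and Fcer2a and the dendritic cell marker Zbtb46 were higher. The part of these cells in the fall of the list was not tested.

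Promoters of this list often held the ISRE core, the element through which interferon response genes are known to be switched on. The share therefore describes the kind of genes listed and not their fall. The ISRE core TTTCNNTTT, searched on both strands in the 250 bases before the gene start, was present in 62.5% of the 32 members with a RefSeq promoter, against 6.94% of all 9269 tested genes with one, and in 11.6% of genes that fell at least 2-fold against 6.56% of genes that rose as much. These 32 promoters had a median GC content of 49.8%, against 60.0% for all, and the core is rich in A and T. Other motifs were also found more often among them, the AP-1 site TGANTCA (both strands) in 8 of 32 against 3.85% of all and the heat shock factor core GAANNTTC in 5 of 32 against 5.06%. The part of base composition in these shares was not tested. The promoters below were chosen after their values and sequences were seen, from members with a match. Their log2 fold changes were -2.79 (Ifit1), -2.70 (Ifit3), -3.09 (Oas3), -2.38 (Isg15) and -2.91 (Rsad2). They are printed 5′ to 3′ on the strand of the gene (RefSeq, GRCm38.p6), with each ISRE core match on either strand in capitals. Ifit1 is at chr19:34640759-34640838 and Ifit3 at chr19:34583339-34583438, both on the plus strand, and Oas3 at chr5:120777700-120777769, Isg15 at chr4:156200859-156200928 and Rsad2 at chr12:26456533-26456602, all on the minus strand.
Ifit1: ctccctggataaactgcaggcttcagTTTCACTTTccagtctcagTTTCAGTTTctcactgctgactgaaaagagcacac
Ifit3: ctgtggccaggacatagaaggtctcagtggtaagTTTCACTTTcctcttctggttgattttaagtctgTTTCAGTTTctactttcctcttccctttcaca
Oas3: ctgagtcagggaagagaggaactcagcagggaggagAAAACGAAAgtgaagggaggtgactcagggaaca
Isg15: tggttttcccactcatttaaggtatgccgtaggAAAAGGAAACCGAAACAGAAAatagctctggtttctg
Rsad2: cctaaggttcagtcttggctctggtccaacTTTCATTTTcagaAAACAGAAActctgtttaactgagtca
Ifit1 and Ifit3 hold the same pair of matches in the same order, and Isg15 holds 3 matches that overlap each other. Members without a match, such as Irf7 and Irf9, fell too.

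MHC class I and antigen processing genes fell in 13 of 20 and rose in 3. H2-T24 (-1.72 ± 0.15) fell most, the immunoproteasome genes given above are part of this list, and H2-Q10 (1.45 ± 0.13), Erap1 (0.67 ± 0.078) and Tapbpl (0.60 ± 0.082) rose. H2 genes resemble one another and can share reads. The light chain gene B2m was at 3283, 2071 and 2357 CPM in the naive libraries and 2634, 2429 and 2800.4 CPM at 37 °C and was not called (0.03 ± 0.16), but it was called higher without naive library 1, its highest library (0.23, adjusted p = 0.0347, edgeR).

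Heat shock chaperones, which fold new and damaged proteins, rose in cells held at 37 °C. Of 28 tested heat shock genes 25 rose and none fell, with a median of 1.32. Hsph1, a nucleotide exchange factor of HSP70, was at 53.3, 56.4 and 61.1 CPM in the naive libraries and 926, 906 and 954 CPM at 37 °C (4.03 ± 0.095). Hspb1, a small heat shock protein, was at 0.204, 0.497 and 0.225 CPM in the naive libraries and 4.63, 4.06 and 3.06 CPM at 37 °C (3.67 ± 0.35), and Hsp90aa1, the inducible HSP90, was at 205, 190 and 197 CPM in the naive libraries and 992, 995 and 1036 CPM at 37 °C (2.35 ± 0.083). The heat shock factor core GAANNTTC was found on either strand in 26.1% of 23 promoters of this list against 5.06% of all. The list was drawn up as heat shock genes, so this share describes the list and not its rise. Hsph1 and Hspa4l (3.15) held no match and rose, while Dnajb6 held 1 match and changed by 0.26. The Hspb1 promoter, on the plus strand of chr5:135887769-135887856 (RefSeq, GRCm38.p6), holds 2 matches in capitals.
Hspb1: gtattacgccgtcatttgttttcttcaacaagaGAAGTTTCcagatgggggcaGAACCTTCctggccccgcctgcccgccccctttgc

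Targets of ATF4 and CHOP, the factors of the amino acid and endoplasmic reticulum stress response, rose in 14 of 16 and fell in 1, with a median of 1.25 that did not change with Chac1 at its bound. Besides Chac1 and Asns, Cth, which makes cysteine, was at 0.0679, 0.071 and 0.0561 CPM in the naive libraries and 1.30, 1.31 and 1.57 CPM at 37 °C (4.26 ± 0.42), and Sesn2 was at 6.92, 8.45 and 8.59 CPM in the naive libraries and 78.7, 74.5 and 74.5 CPM at 37 °C (3.24 ± 0.1). Ppp1r15a, the phosphatase regulator known as GADD34, fell (-1.55 ± 0.08). The ATF4 element TGATGNAA was found on either strand in 23.1% of 13 promoters of this list against 1.94% of all. The list was drawn up as targets of ATF4 and CHOP, so this share describes the list and not its rise. The Chac1 promoter on the plus strand of chr2:119351012-119351081 (RefSeq, GRCm38.p6) holds 1 match in capitals, which begins 193 bases before the start.
Chac1: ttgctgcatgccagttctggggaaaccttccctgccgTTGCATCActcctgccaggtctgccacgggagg
In contrast to these lists, the MYC E-box CACGTG was in 7.14% of 42 promoters of ribosome biogenesis factors, close to the 8.57% of all promoters. Other growth lists that rose had larger shares. The E-box was in 3 of 12 promoters of aminoacyl-tRNA synthetases and 4 of 22 of nucleotide synthesis. It was in 6 of 34 of nuclear pore and transport genes and 2 of 16 of serine, one-carbon and proline synthesis. Among ribosomal protein genes, which fell, 4 of 57 held it. These differences rest on few promoters and were not tested.

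**Figure D5:**
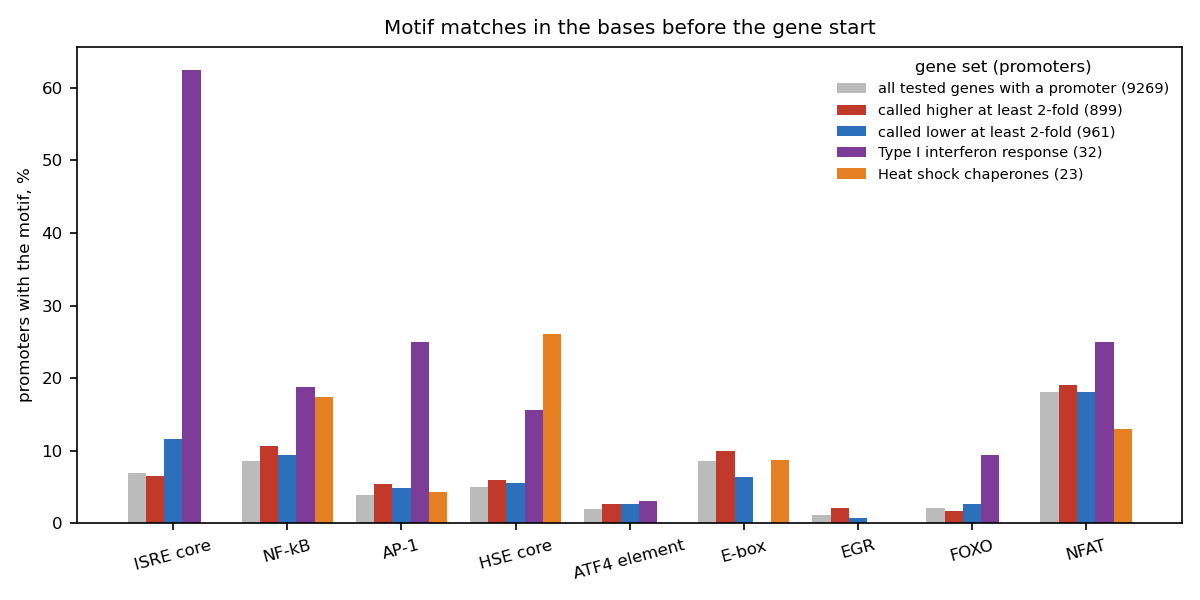
Share of promoters, in percent of those with a RefSeq sequence, that hold each of 9 motifs on either strand in the 250 bases before the gene start, for all tested genes, genes changed at least 2-fold in either direction and 2 gene lists (number of promoters in the legend). The ISRE core stands out at 62.5% of 32 interferon response promoters against 6.94% of all, and the heat shock core at 26.1% of 23 heat shock promoters against 5.06%.

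Other stress programs were mixed. HIF targets and oxygen sensors rose in 8 of 21 and fell in 7, near the background: Vegfa was at 1.49, 2.06 and 1.96 CPM in the naive libraries and 52.4, 52.4 and 55.3 CPM at 37 °C (4.85 ± 0.12) and Hif1a (1.17 ± 0.073) rose, while Pdk1 fell (-2.12 ± 0.072). NRF2 targets rose in 7 of 18 and fell in 7 (in 4 without 37 °C library 2), with Srxn1 (2.08 ± 0.44) at the top and Osgin1 (-2.36 ± 0.21) at the bottom. Autophagy and lysosome regulators rose in 8 of 34 and fell in 14, or in 9 without 37 °C library 3, with the cathepsin genes Ctsd (-1.46 ± 0.11) and Ctss (-0.84 ± 0.11) and the factor gene Tfeb (-0.84 ± 0.12) lower and its relative Tfe3 (0.99 ± 0.085) higher.

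More clock genes rose than fell. Of 19 tested, 10 rose and 2 fell, against 29.8% and 30.2% of all genes, with a median of 0.47. Per2, a repressor of the clock, was at 5.91, 9.37 and 6.29 CPM in the naive libraries and 41.6, 40.5 and 38.5 CPM at 37 °C (2.49 ± 0.16), and Ciart (2.84 ± 0.12) and Bhlhe40, which is also a cytokine regulator of T cells (2.75 ± 0.1), rose. Bhlhe41 (-2.39 ± 0.45) and the clock output gene Dbp (-1.69 ± 0.12) fell. The labels do not give the time of day at which either group was collected.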

How the data were processed

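Each library has 1 table of raw counts of reads per gene, as the authors deposited it. Total RNA was extracted with TRIzol and prepared with a TruSeq kit, per the labels' protocols. The build GRCm38 and the tools HISAT2, HTSeq, FastQC and DESeq2 are named in the submitters' processing notes. Roles, versions, annotation release and strand setting are not given in the sources used here. Without strand, overlapping and antisense genes cannot be told apart. Of 55573 identifiers 55480 matched GENCODE M21, which gave symbols and coordinates.

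After filterByExpr (minimum count 10, minimum total 15), genes were scaled by TMM and tested in the 6 libraries with edgeR 4.0.16 (R 4.3.3), 2-sided, at an adjusted p of 0.05. The fit was tested on simulated data. The 64 gene lists (10 of cell type markers), the naming rule and the members were chosen with earlier results of these data known. Named were the 12 largest called changes per direction at a mean of at least 5 CPM without overlap, leaving out predicted genes, pseudogenes and marker genes, all tested members of lists of up to 12, up to 4 per direction of longer lists, genes without counts in 1 group, and a fixed set of genes. Some genes that the rule names are not reported here. Bounds use 3 counts over a group. They include no error beyond counting, as reads here carry no molecular identifiers. Groups of 3 were not checked for outliers. Alternatives were other scalings, filters and thresholds, DESeq2 1.42.0, a replicate block, all 9 libraries, and each library left out.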

Additional observations from a re-analysis of the deposited data

How the results depend on the processing

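The counts of higher and lower genes stayed within 1.5 times their main values of 3877 and 3927 in all 16 alternatives. RLE scaling gave 3838 and 3953, library size alone 3623 and 4162, any count 4073 and 4650 among 28412 genes, a minimum count of 50 gave 3354 and 3373 (and 892 genes at least 2-fold lower in place of 1346, since fewer genes were tested), all 9 libraries 4114 and 4240, removal of the 50 most abundant genes 3857 and 3921, an adjusted p of 0.01 gave 3039 and 2998, and DESeq2 3640 and 3707. Upper-quartile scaling moved most, to 3019 and 4926. Leaving out each library gave 3357 to 4246 higher and 3343 to 4365 lower genes. The replicate block gave 4016 and 3947. Same-numbered libraries deviated together only in part (correlations of 0.011, 0.297 and -0.068), and not every library went best with its own number. So few libraries cannot decide if equal numbers mark a shared source, which the labels do not state. Of 476 named genes compared (425 at a minimum count of 50 and 466 without the 50 most abundant genes), no call changed sign in any alternative, and 448 to 466 kept theirs when 1 library was left out. Depth limits the genes below the count filter, such as Ifng.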

Other observations

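Histone genes were lower after activation as far as they could be measured. Of 25 tested, 15 fell and none rose, with a median log2 fold change of -0.88, and 10 were at least 2-fold lower. Most histone messages lack a poly(A) tail, and the mitosis genes, which mark dividing cells, were lower in the same libraries. Of 309 zinc finger genes named Zfp, 23.6% were higher and 25.6% lower, against 29.8% and 30.2% of all genes, with a median of 0.01.

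Genes with more and with less annotated exon sequence did not move alike. The exon length used here joins the exons of all annotated transcripts of a gene and is not the length of a transcript. Among 11028 protein-coding genes ranked by summed exon length, the shortest quintile had 22.8% higher and 38.4% lower genes (median -0.18), and the longest quintile 37.0% higher and 24.3% lower (median 0.13). The rank correlation of the change with exon length was 0.131 across genes, which are not independent, and with gene span 0.026. Ribosomal protein genes are short, and their part in this pattern was not tested. Loci annotated as to be experimentally checked (TEC), most of which are single blocks of sequence, were higher in 27.1% and lower in 10.0% of 310.

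Per base of annotated exon, the most abundant protein-coding genes were nearly the same before and after activation, and other gene classes were not ranked. Rplp1, mt-Co1, Eef1a1, Rps15 and B2m led in naive cells and Rplp1, Eef1a1, mt-Co1 and B2m at 37 °C, on a scale of counts per length and library size.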
